A study of Danio rerio with 10 samples.

Results

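The proteasome is the barrel-shaped protease that degrades proteins tagged with ubiquitin. Its core particle is built of alpha rings, which control entry, and beta rings, which carry the cutting sites. A regulatory particle of ATPase and non-ATPase subunits binds tagged proteins, removes the ubiquitin and threads the protein into the core. In mammals, interferon and haematopoietic cells bring in alternative beta subunits and the activator made by psme1 and psme2. The resulting immunoproteasome cuts proteins into peptides that suit class I antigen presentation, and it is the common form in white blood cells.

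Genes were chosen by name, as those whose only symbol in the array's annotation begins with psma, psmb, psmc, psmd, psme, psmf or psmg. The rule found 50 genes among 8793 named genes, each represented by its probe set with the highest mean over 10 arrays. Of these, 48 encode subunits, activators, an inhibitor or assembly chaperones of the proteasome. The other 2, psmc3ip, a meiotic recombination factor in mammals, and psme3ip1, a partner of the psme3 product, were not counted among the 48. The 48 genes comprise 8 alpha ring genes, 7 constitutive beta ring genes, 5 immunoproteasome-type beta genes, 7 ATPase genes, 11 non-ATPase genes, 3 activator genes, the inhibitor psmf1 and 6 assembly chaperone genes. No filter on low values was used, so all 50 were tested. The RefSeq proteasome genes psma3, psma6b, psmb11a, psmb11b, psmd11a, psmd14, psme4a, psme4b and psmg4 had no probe set with a single symbol and were not analysed here.

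The samples were kidney marrow, the blood-forming organ of adult zebrafish, from 5 fish overexpressing human CREB and 5 control fish, with 1 array per animal. CREB turns on genes in response to cyclic AMP, and the series' title ties the model to leukaemia and myeloid differentiation. The labels give no age, strain or sex for either group, and the sources used here do not name the promoter driving CREB. Signals are on a log2 scale, so a difference of 1 is a doubling of signal, and differences are CREB minus control. Groups were compared with limma across 15502 probe sets, and a gene was said to rise or fall only at an adjusted p under 0.05. Precision is limited by the small number of arrays.

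Several arrays stood apart within their group. CREB arrays 3 and 5 had a 5' signal of the control transcript gapdh of 6.50 and 6.74, against 9.54 to 10.70 on the other 8 arrays, while its 3' signal lay between 10.79 and 12.05 on all 10. Control arrays 3, 4 and 5 had a mean level of 13 gonad and egg markers of 9.74, 8.31 and 9.79, against 5.43 to 7.47 on the other arrays. Skeletal muscle markers (14 measured) had a mean level of 7.58 to 10.14 in CREB fish and 4.84 to 5.40 in control fish, and 12 exocrine pancreas markers were at 9.77 and 10.74 on control arrays 4 and 5 against 5.88 to 6.89 elsewhere. Kidney tubule and glomerulus markers (10 measured, 7 higher and 0 lower) lay between 7.98 and 8.77 in CREB fish and 7.24 and 7.63 in control fish. Of 22 cell cycle genes 1 was higher and 10 were lower, with a median difference of -1.27. Over all probe sets 23.5% were higher and 6.79% lower. The mean cell cycle level was 8.90 and 8.87 on control arrays 3 and 5. It was 7.74 to 8.12 on control arrays 1, 2 and 4, and 7.02 to 8.16 in CREB fish. The gene ccnb1 is in both this list and the gonad and egg list. Of the marrow's own cells, 9 neutrophil markers lay between 9.55 and 10.62 in CREB fish and 10.50 and 11.50 in control fish, 6 macrophage markers between 9.12 and 10.56 against 9.82 and 10.67, 8 erythroid markers between 8.45 and 10.51 against 9.50 and 10.33, and 5 lymphocyte markers between 5.57 and 6.03 against 5.38 and 6.10. Of these, 0 neutrophil markers were higher and 5 lower, with a median difference of -0.83. The counts were 0 and 1 for macrophage, 0 and 0 for erythroid and 2 and 0 for lymphocyte markers. Without CREB arrays 3 and 5, 4 neutrophil markers were lower, against 2.39% of all probe sets, and no marker of the other types passed. In whole marrow, fewer cells of a type and less RNA per cell cannot be told apart.

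In CREB fish most proteasome genes did not pass the test, and those that did went in both directions. Of the 50 genes 4 rose, 5 fell and 41 did not pass the test, against 23.5% of all probe sets higher, 6.79% lower and 30.3% in either direction, or 27.0% in either direction among probe sets with a mean of log2 6 or more. When only those 7405 brighter probe sets were fitted, 907 were higher and 619 lower. Among them, 2 of 49 genes of the rule were higher and 2 lower. With all probe sets fitted, the genes that rose were psmd2, psmb10, psmg1 and psmb5. Those that fell were psmc1a, psmd8, psma2a, psma5 and psmg3. Whether or not they passed, 34 of the 48 subunits had a difference below 0 and 14 above. Below 0 were all 7 ATPase genes, 7 of 8 alpha ring genes and 6 of 7 constitutive beta ring genes. Of the 11 non-ATPase genes 6 were below 0, and of the 5 immunoproteasome-type beta genes 1 was. Without CREB arrays 3 and 5, 29 of the 48 were above 0. The median log2 difference of the 50 genes was -0.20, against 0.18 for all probe sets and -0.03 for those with a mean of log2 6 or more. Relative to all probe sets the median of the 50 was -0.37, and it was -0.19 with quantile scaling and -0.20 with cyclic loess, where the median of all probe sets was 0.04 and -0.01. With median centring 1 gene, psmd2, was higher and 7 were lower. That scaling moved the share of higher calls over all probe sets from 77.6% to 63.3%, quantile scaling to 60.4% and cyclic loess to 51.9%.

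Spread within the CREB group was wide. The median SD over the 48 subunits was 0.48 across the CREB fish and 0.18 across the controls, and in 41 of 48 the CREB SD was the larger, against 56.9% of all probe sets. The mean level of the 48 was 8.54, 9.05, 8.24, 9.15 and 8.14 on CREB arrays 1 to 5 and 8.83, 8.92, 8.62, 8.77 and 8.61 on control arrays 1 to 5. CREB arrays 2 and 4 were above every control array and CREB arrays 1, 3 and 5 below every one. In 29 of 48 subunits (60.4%) CREB arrays 3 and 5, those with the low gapdh 5' signal, were the lowest of their group, against 19.7% of all probe sets. The part of RNA quality in these differences was not tested.

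With CREB arrays 3 and 5 left out, 5 genes passed as higher and none as lower (limma), with 11 higher and 5 lower at an unadjusted p under 0.05, against 10.7% of all probe sets higher and 2.39% lower. The 5 were psmd1, psmd2, psmd3, psmf1 and psme3ip1. Of the 4 that rose on 10 arrays psmd2 passed again, while psmb10, psmb5 and psmg1 had differences of 0.85, 0.56 and 0.54, close to their 0.80, 0.48 and 0.56 on 10 arrays, and did not pass (adjusted p = 0.0808, 0.0775 and 0.108). Of the 5 that fell, psmc1a and psmg3 had differences of -0.75 and -0.54, against -0.82 and -0.56 on 10 arrays (adjusted p = 0.0699 and 0.134). The differences of psmd8, psma2a and psma5 shrank to -0.55, -0.33 and -0.36 from -0.96, -0.56 and -0.74. Over all probe sets, calls fell from 30.3% to 13.1% with these arrays left out. The median of the 50 genes became 0.14, against 0.19 for all probe sets. Without control arrays 3 and 5, the arrays with the most gonad and egg signal, psmd2 was higher and psmg3 and psme1 were lower, against 15.7% of all probe sets called. With these 4 arrays all left out, 3 against 3, psmd1, psmd2, psmd3 and psmf1 were higher and none was lower (limma; 7 higher and 5 lower at an unadjusted p under 0.05), against 7.69% of all probe sets called.

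**Figure D1:**
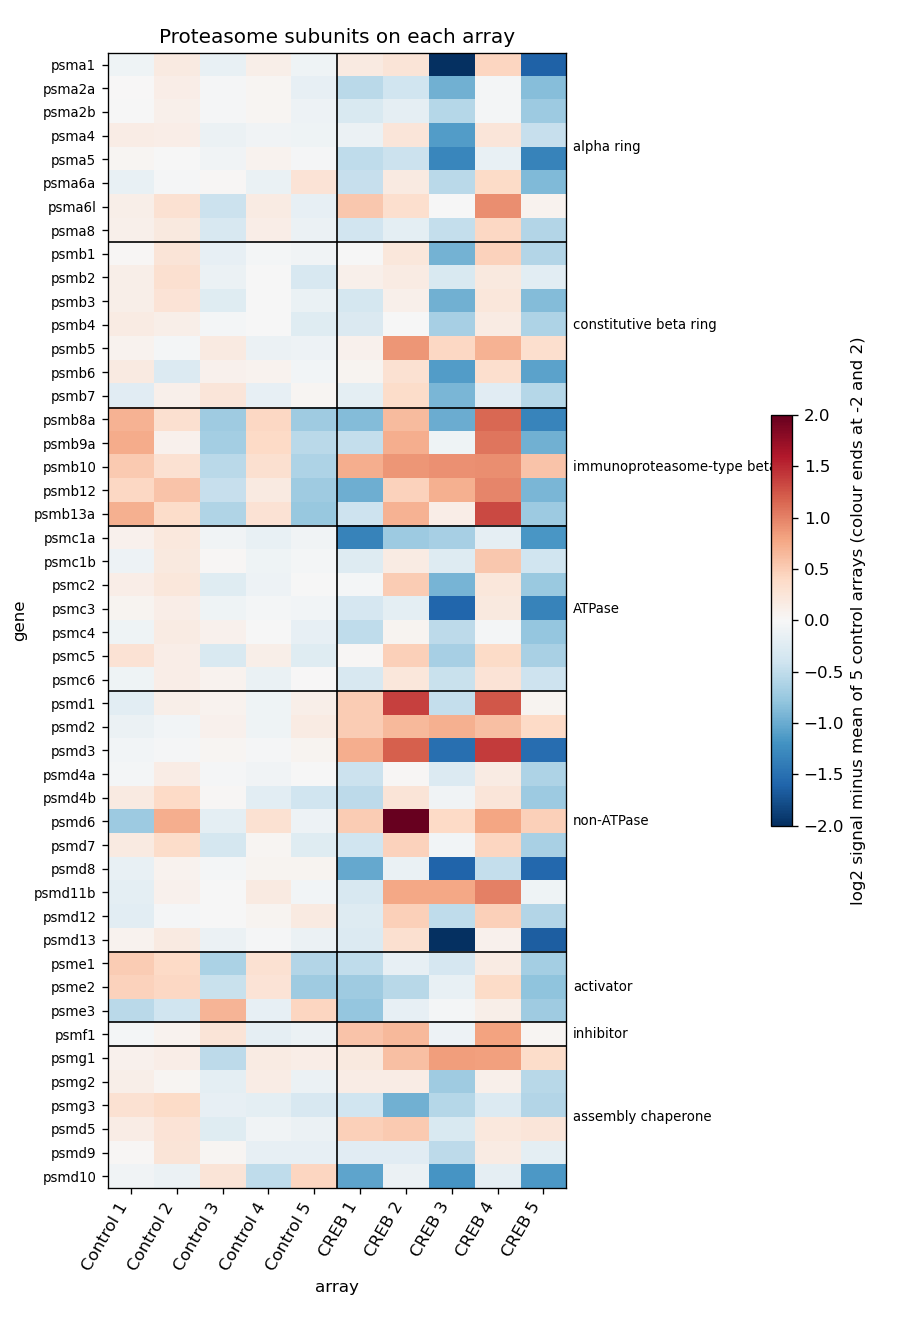
Heat map of the 48 proteasome genes (rows, grouped by part of the particle) on 10 arrays (columns), coloured by log2 signal minus the mean of the 5 control arrays, with colours ending at -2 and 2. The control columns are paler than the CREB columns in most rows outside the immunoproteasome-type and activator genes, and CREB arrays 3 and 5 are blue in most alpha, beta and ATPase rows.

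The alpha ring was represented by 8 genes, of which psma2a and psma5 fell and none rose. On CREB arrays 1 to 5 psma5 was at 9.14, 9.21, 8.34, 9.50 and 8.31, and on control arrays 1 to 5 at 9.68, 9.63, 9.57, 9.72 and 9.61. Every CREB array lay below every control array, and the control values spanned a narrow band. The difference was -0.74 ± 0.23 (SE; limma, adjusted p = 0.0358). The call was lost without CREB array 3 or 5 or any 1 control array (adjusted p up to 0.0726), and without CREB arrays 3 and 5 together the difference was -0.36 (adjusted p = 0.0740).

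The gene psma2a was at 9.12, 9.26, 8.70, 9.62 and 8.82 in CREB fish and at 9.67, 9.80, 9.64, 9.70 and 9.51 in control fish. CREB array 4 reached into the control range, so the groups overlapped. The difference of -0.56 ± 0.17 (SE; limma, adjusted p = 0.0335) was lost without CREB array 1, 3 or 5 or control array 1, 2, 3 or 4 (adjusted p up to 0.0753), and was -0.33 without CREB arrays 3 and 5 (adjusted p = 0.135). Its paralogue psma2b had a difference of -0.36 ± 0.14 (SE) and did not pass (adjusted p = 0.0725).

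The remaining alpha genes, psma1, psma2b, psma4, psma6a, psma6l and psma8, had differences between -0.73 and 0.37. The widest spread was that of psma1, singled out after its values were seen, at 9.88, 9.95, 6.82, 10.12 and 8.07 in CREB fish and 9.61, 9.88, 9.54, 9.82 and 9.61 in control fish. CREB arrays 1, 2 and 4 lay in or above the control range while arrays 3 and 5 lay far below them. The difference was -0.73 ± 0.59 (SE; limma, adjusted p = 0.347), and with CREB arrays 3 and 5 left out it was 0.29 ± 0.13 (adjusted p = 0.142). In all 8 alpha genes CREB arrays 3 and 5 were the lowest of their group.

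Of the 7 constitutive beta ring genes psmb5 rose and none fell. This gene encodes the constitutive subunit with chymotrypsin-like activity. It was at 7.90, 8.70, 8.21, 8.50 and 8.13 on CREB arrays 1 to 5 and at 7.87, 7.77, 7.99, 7.68 and 7.71 on control arrays 1 to 5. CREB array 1 lay inside the control range and the other 4 above it. The difference was 0.48 ± 0.15 (SE; limma, adjusted p = 0.0397). It was lost without CREB array 2, 3, 4 or 5 or control array 1, 2, 4 or 5 (adjusted p up to 0.0830). It was 0.56 without CREB arrays 3 and 5 (adjusted p = 0.0775).

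The other catalytic genes of the constitutive ring are psmb6, with caspase-like activity, and psmb7, with trypsin-like activity. The signal of psmb6 was 8.99, 9.24, 7.82, 9.26 and 7.85 across the CREB fish and 9.11, 8.65, 9.02, 8.999 and 8.87 across the controls. Its difference was -0.30 ± 0.31 (SE; limma, adjusted p = 0.462). When CREB arrays 3 and 5 were left out it was 0.23 (adjusted p = 0.264). For psmb7 the values were 9.32, 9.88, 8.61, 9.28 and 8.94 against 9.29, 9.62, 9.76, 9.35 and 9.55. Neither gene separated the groups, and on both CREB arrays 3 and 5 were the lowest of their group. The difference of psmb7 was -0.31 ± 0.22 (SE; limma, adjusted p = 0.283). The structural genes psmb1, psmb2, psmb3 and psmb4 did not pass, with differences between -0.37 and -0.01.

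The immunoproteasome-type beta genes were psmb9a, psmb10 and psmb8a, whose mammalian counterparts replace the products of psmb6, psmb7 and psmb5, and psmb12 and psmb13a, which RefSeq lists with the synonyms beta1t and beta2ta. Only psmb10 rose. It was at 9.31, 9.46, 9.49, 9.50 and 9.14 in CREB fish and at 9.10, 8.88, 8.04, 8.89 and 7.96 in control fish. The lowest CREB array was just above the highest control array, and control arrays 3 and 5 were well below the other 3. The difference was 0.80 ± 0.23 (SE; limma, adjusted p = 0.0284), a fold change of 1.75. It was lost without CREB array 1, 2 or 3 or control array 3 or 5 (adjusted p up to 0.0584), and it was 0.42 without control arrays 3 and 5 together (adjusted p = 0.0574) and 0.39 without control arrays 3, 4 and 5 (adjusted p = 0.163).

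The other 4 genes of this class differed far more between arrays than between groups. The signal of psmb8a was 7.32, 8.81, 7.20, 9.33 and 6.87 across the CREB fish and 8.87, 8.50, 7.48, 8.60 and 7.47 across the controls. That of psmb9a was 6.95, 8.14, 7.33, 8.49 and 6.46 against 8.16, 7.51, 6.75, 7.82 and 6.88. In each group the arrays fell over a range of more than 1 log2 unit, and the ranges overlapped. The signal of psmb12 was 7.04, 8.48, 8.73, 8.998 and 7.10 across the CREB fish and 8.43, 8.59, 7.56, 8.20 and 7.31 across the controls. That of psmb13a was 7.67, 8.77, 8.20, 9.40 and 7.35 against 8.78, 8.45, 7.48, 8.36 and 7.32. On all 4 genes CREB array 4 was the highest CREB array, and control arrays 3 and 5 were the lowest control arrays. CREB array 4 also had the highest mean level of its group over all 48 subunits, at 9.15, and over the alpha ring genes, at 9.71. Over the constitutive beta and non-ATPase genes CREB array 2 was highest, at 9.87 and 9.03. The differences were -0.28 ± 0.51 for psmb8a, 0.05 ± 0.42 for psmb9a, 0.05 ± 0.44 for psmb12 and 0.20 ± 0.42 for psmb13a (SE; limma, adjusted p between 0.691 and 0.935). The signs of these differences turned with the arrays left out: without control arrays 3 and 5 the values were -0.75, -0.35, -0.33 and -0.25, and without CREB arrays 3 and 5 they were 0.31, 0.44, 0.15 and 0.54.

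In the RefSeq gene table of the assembly GRCz12tu these 4 genes follow one another directly, in the order psmb13a, psmb8a, psmb12 and psmb9a. The peptide transporter gene tap2a comes next, and the peptide-loading gene tapbp.1 and the class I gene mhc1uka lie a few genes to the other side. The gene psmb10 lies elsewhere. The neighbour tapbp.1 was at 7.60, 8.40, 7.87, 9.60 and 7.72 in CREB fish and 8.04, 7.74, 7.42, 7.79 and 7.45 in control fish, with a difference of 0.55 ± 0.35 (SE) that did not pass (limma, adjusted p = 0.238). It too was highest on CREB array 4 and lowest among control arrays on arrays 3 and 5. The neighbour mhc1uka went the other way, at a low signal with a control mean of 3.95. Its lowest CREB array was array 4, at 4.15, with the rest of that group between 4.28 and 4.72. Its highest control arrays were arrays 3 and 5. Values of the measured neighbours daxx and brd2a are not given here, and shared variation across the region was not tested.

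The activator genes psme1 and psme2 encode the complex that, with the immunoproteasome, interferon raises in mammals. The signal of psme1 was 9.63, 9.97, 9.80, 10.30 and 9.45 across the CREB fish and 10.64, 10.54, 9.50, 10.45 and 9.55 across the controls. That of psme2 was 8.89, 9.05, 9.46, 9.99 and 8.79 against 10.06, 10.02, 9.15, 9.88 and 8.89. Control arrays 1, 2 and 4 were high and control arrays 3 and 5 lay among the CREB values. The differences were -0.31 ± 0.27 and -0.37 ± 0.30 (SE; limma, adjusted p = 0.388 and 0.354). Without control arrays 3 and 5 they were -0.71, which passed, and -0.75, which did not (adjusted p = 0.0432 and 0.0820).

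Control arrays 3 and 5 were the lowest of their group in all 7 of these genes, the 5 immunoproteasome-type beta genes with psme1 and psme2. The same held in 16 of the other 41 subunits (39.0%) and in 33.8% of all probe sets. On control arrays 3 and 5 the mean level of the 6 macrophage markers was 9.86 and 9.82, against 10.36 to 10.67 on control arrays 1, 2 and 4. Among them ctss2.1 went the other way, at 12.87 and 12.63 against 10.98 to 11.52. For csf1ra control array 5 (5.14) lay above control array 4 (4.95). The 5 lymphocyte markers were at 5.38 and 5.45 against 5.88 to 6.10, and the 9 neutrophil markers at 10.50 and 10.53 against 11.30 to 11.50. Here too single markers differed. On control array 5 the lymphocyte markers rag2 and pax5 (4.96 and 5.39) lay above control array 4 (4.84 and 5.37). The neutrophil marker cpa5 was at 12.77 on control array 5, above control array 1 (12.46). CREB array 4 had the highest macrophage level of its group, 10.56 against 9.12 to 9.57. It also had the highest mean level of 9 interferon response genes, 7.68 against 6.34 to 6.84 on the other CREB arrays. That level was 6.60 to 6.94 in control fish, with 6.74 on both control arrays 3 and 5. CREB array 4 was also highest of its group for cell cycle genes (8.16 against 7.02 to 7.42) and gonad and egg markers (7.47 against 5.43 to 6.18). So it was for lymphocyte markers (6.03 against 5.57 to 5.97) and class I antigen presentation genes (8.07 against 7.42 to 7.92). The same held for proteasome-associated factors (8.03 against 7.52 to 7.95). It was not highest for neutrophil, erythroid, skeletal muscle, exocrine pancreas or kidney markers, or for ubiquitin and activating enzyme genes. CREB array 4 thus stood highest in other lists too, by a narrow margin for lymphocyte markers, class I genes and proteasome-associated factors. The part of cell composition or of interferon in these values was not tested.

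**Figure D2:**
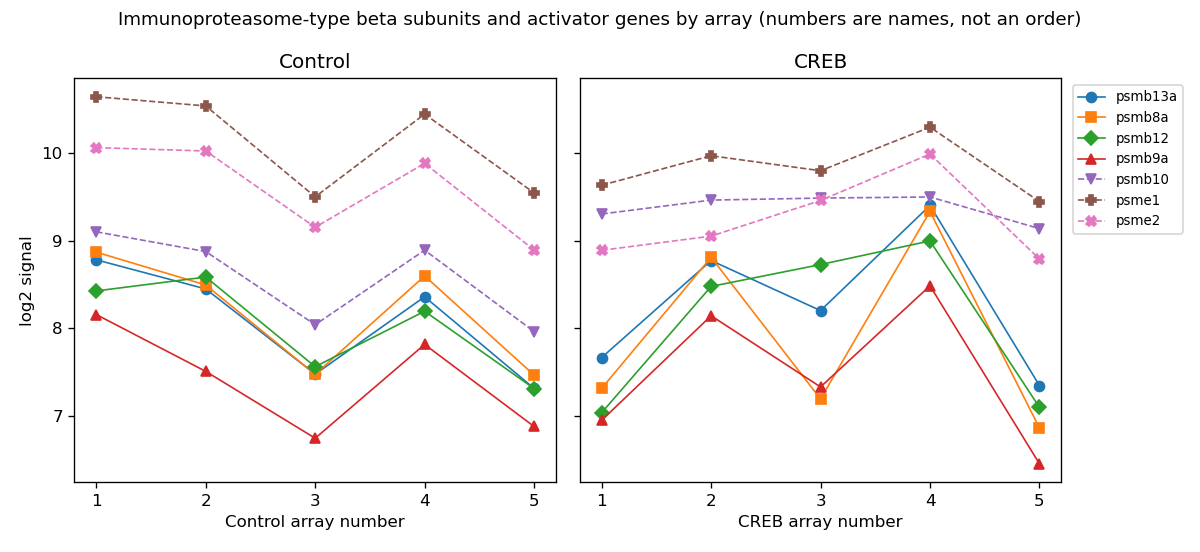
Log2 signal of the 5 immunoproteasome-type beta genes and the activator genes psme1 and psme2 on each control array (left) and CREB array (right). Lines join the values of 1 gene and the array numbers have no order. All 7 genes are low on control arrays 3 and 5, and psmb10 stays between 9.14 and 9.50 on the CREB arrays.

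The third activator gene, psme3, encodes a nuclear activator. It was at 7.78, 8.39, 8.51, 8.67 and 7.83 in CREB fish and 8.01, 8.15, 9.23, 8.38 and 8.97 in control fish. Unlike psme1 and psme2 it was highest on control arrays 3 and 5. Its difference of -0.31 ± 0.28 (SE; limma, adjusted p = 0.389) did not pass and was 0.06 without control arrays 3 and 5. The inhibitor gene psmf1 was at 7.60, 7.68, 6.93, 7.84 and 7.07 in CREB fish and 6.99, 7.11, 7.29, 6.84 and 6.92 in control fish. CREB arrays 1, 2 and 4 were above every control array and arrays 3 and 5 were not. The difference was 0.39 ± 0.19 on all arrays (SE; limma, adjusted p = 0.131). Leaving out CREB arrays 3 and 5 gave 0.68 ± 0.13 (SE; adjusted p = 0.0237). A second, dimmer psmf1 probe set was at 6.60, 6.87, 4.66, 6.84 and 4.82 in CREB fish and 6.23 to 6.67 in control fish, with a difference of -0.40 ± 0.46 (SE; adjusted p = 0.506).

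Among the 7 ATPase genes, which encode the ring that unfolds substrates, psmc1a fell and none rose. Its signal was 7.72, 8.32, 8.38, 8.86 and 7.88 across the CREB fish and 9.14, 9.26, 8.97, 8.89 and 8.97 across the controls. Every CREB array lay below every control array, and here CREB array 1, not array 3 or 5, was the lowest. The difference was -0.82 ± 0.20 (SE; limma, adjusted p = 0.0174). It held when any 1 array was left out (adjusted p up to 0.0413) and had a similar size without CREB arrays 3 and 5, at -0.75, where it did not pass (adjusted p = 0.0699). Nor did it pass with replicate number as a block, at -0.82, or without control arrays 3 and 5, at -0.87 (limma, adjusted p = 0.0516 and 0.0528). Its paralogue psmc1b had a difference of -0.04 ± 0.18 (SE; adjusted p = 0.861). The other 5 ATPase genes, psmc2 to psmc6, did not pass, with differences between -0.65 and -0.08.

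Of the 11 non-ATPase genes psmd2 rose and psmd8 fell. The gene psmd2 encodes a scaffold of the regulatory particle that docks ubiquitin shuttle proteins. It was at 7.07, 7.21, 7.28, 7.16 and 6.96 in CREB fish and 6.45, 6.52, 6.66, 6.48 and 6.72 in control fish. The groups did not overlap, and CREB arrays 3 and 5 lay with the rest of their group. The difference was 0.57 ± 0.10 (SE; limma, adjusted p = 0.00616), a fold change of 1.49, with the smallest p of the 50 genes. It held when any 1 array was left out (adjusted p up to 0.0184) and without CREB arrays 3 and 5, at 0.58 (adjusted p = 0.0219). Without control arrays 3, 4 and 5, which leaves 2, it was 0.66 and did not pass (adjusted p = 0.0590).

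The gene psmd8 encodes a subunit of the lid, the outer part of the regulatory particle. Its signal was 8.72, 9.60, 8.14, 9.26 and 8.16 across the CREB fish and 9.59, 9.82, 9.70, 9.80 and 9.79 across the controls. CREB array 2 reached the lowest control value, and arrays 3 and 5 were lowest. The difference of -0.96 ± 0.27 (SE; limma, adjusted p = 0.0263) was lost without CREB array 1, 3 or 5 or control array 4 or 5 (adjusted p up to 0.0577), and was -0.55 without CREB arrays 3 and 5 (adjusted p = 0.0862).

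A further 4 non-ATPase genes were singled out after their values were seen. The lid gene psmd3 was at 8.38, 8.85, 6.14, 9.05 and 6.14 in CREB fish and 7.59, 7.63, 7.69, 7.63 and 7.71 in control fish. Its CREB arrays fell to either side of a tight control band, with arrays 3 and 5 far below it. The difference was 0.06 ± 0.58 on all arrays and 1.11 ± 0.16 without CREB arrays 3 and 5 (SE; limma, adjusted p = 0.942 and 0.00968). The lid gene psmd13 was at 8.44, 9.04, 6.39, 8.80 and 7.06 against 8.79, 8.89, 8.60, 8.68 and 8.60. Its difference of -0.77 ± 0.47 went to 0.05 ± 0.16 without CREB arrays 3 and 5 (SE; adjusted p = 0.221 and 0.845).

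The scaffold gene psmd1 was at 8.28, 9.13, 7.28, 9.01 and 7.83 in CREB fish and 7.54, 7.88, 7.84, 7.67 and 7.88 in control fish. The difference was 0.54 ± 0.33, and 1.04 ± 0.21 without CREB arrays 3 and 5 (SE; limma, adjusted p = 0.213 and 0.0231). Its second, dimmer probe set was at 7.90, 8.39, 8.16, 8.29 and 7.84 in CREB fish and 7.15, 7.34, 7.28, 7.26 and 7.37 in control fish, with no overlap. That probe set rose by 0.83 ± 0.13 (SE; adjusted p = 0.00369), and on it CREB array 3 was not low. The lid gene psmd6 was at 10.002, 13.04, 9.89, 10.28 and 9.97 in CREB fish and 8.76, 10.22, 9.29, 9.79 and 9.38 in control fish. Its difference of 1.15 ± 0.58, the largest of the 50, did not pass (SE; adjusted p = 0.149), and it was 0.55 without CREB array 2. The ubiquitin receptor genes psmd4a and psmd4b, with psmd7, psmd11b and psmd12, had differences between -0.22 and 0.43 and did not pass. A dimmer probe set of psmd12, with a mean of 4.89 in CREB fish and 5.71 in control fish, fell by 0.82 ± 0.27 (SE; adjusted p = 0.0467).

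**Figure D3:**
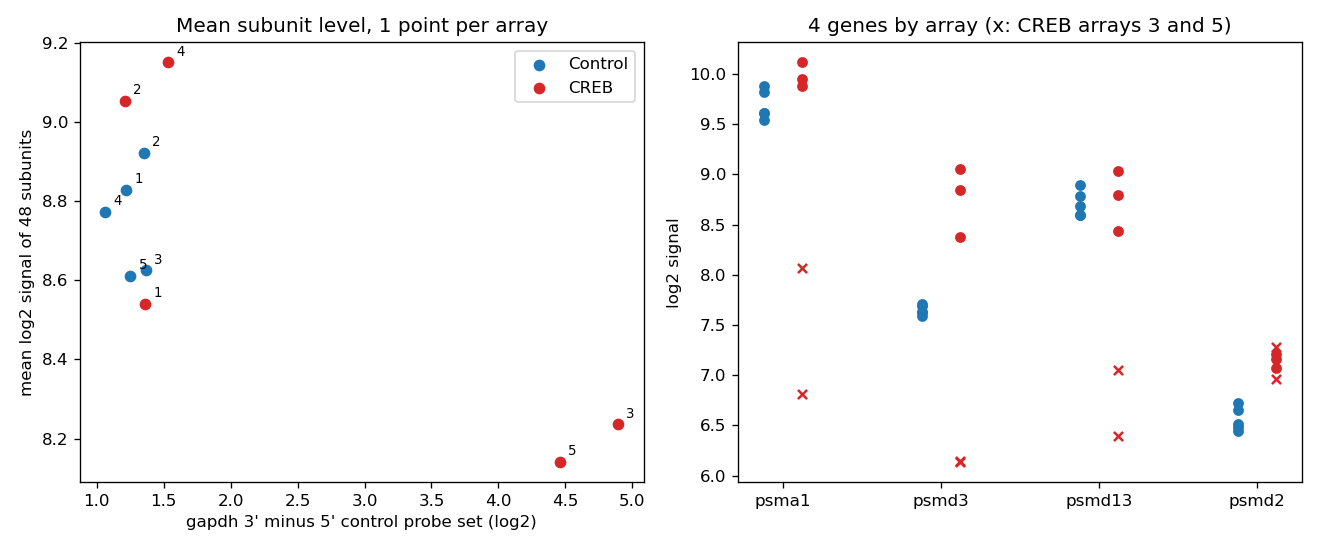
Left, mean log2 signal of 48 subunits against the gapdh 3' minus 5' control signal, 1 numbered point per array. Right, log2 signal of psma1, psmd3, psmd13 and psmd2, with CREB arrays 3 and 5 as crosses. CREB arrays 3 and 5, at 4.89 and 4.46 on the horizontal axis of the left panel against 1.06 to 1.53 for the other 8, have the lowest mean subunit levels, and they are the lowest points for the first 3 genes, while for psmd2 they lie above every control array.

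Of the 6 assembly chaperone genes psmg1 rose and psmg3 fell. Their products act in pairs in alpha ring assembly, psmg1 with psmg2 and psmg3 with psmg4. The gene psmg1 was at 7.66, 8.07, 8.30, 8.28 and 7.84 in CREB fish and 7.55, 7.60, 6.95, 7.63 and 7.60 in control fish. The groups were separated by a narrow margin, and control array 3 was far below the others. The difference was 0.56 ± 0.18 (SE; limma, adjusted p = 0.0372), lost without CREB array 2, 3, 4 or 5 or control array 1, 3, 4 or 5 (adjusted p up to 0.0778). It was 0.54 without CREB arrays 3 and 5 (adjusted p = 0.108). In CREB fish its second, dimmer probe set was at 6.42, 6.77, 5.68, 6.83 and 5.75, with arrays 3 and 5 lowest. It was at 6.43 to 6.63 in control fish, with a difference of -0.26 ± 0.23 (SE; adjusted p = 0.389).

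The gene psmg3 was at 8.62, 8.05, 8.43, 8.74 and 8.42 in CREB fish and 9.31, 9.39, 8.84, 8.82 and 8.68 in control fish. CREB array 4 lay just above the lowest control array. The difference was -0.56 ± 0.18 (SE; limma, adjusted p = 0.0416), lost without CREB array 1, 2, 3 or 5 or control array 1, 2, 3 or 4 (adjusted p up to 0.0866). It was -0.72 without control arrays 3 and 5 (adjusted p = 0.0438). The partner gene psmg2, with the regulatory particle chaperone genes psmd5, psmd9 and psmd10, did not pass, with differences between -0.74 and 0.23.

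In 3 of the 50 genes every CREB array lay above every control array (psmd2, psmb10 and psmg1), against 19.6% of all probe sets. In another 2 (psmc1a and psma5) every CREB array lay below, against 4.20% of all probe sets. Of 6 subunits with several probe sets, psmd1, psmd12 and psmg1 had probe sets with unlike calls, and psmc1b, psmf1 and psmg1 had probe sets of opposite sign. The psmc1b probe set above 0 had means of 4.20 in CREB fish and 3.93 in control fish, near the level of tag sequences. On the second probe sets of psmf1 and psmg1, both below 0, CREB arrays 3 and 5 were the lowest of their group. All 48 subunits had a mean over 10 arrays between 6.40 and 10.34, above the control probe sets for tag sequences. The mean of those was 4.23 to 4.46 on the CREB arrays and 3.90 to 4.18 on the control arrays, with no overlap. The shares over all probe sets include dim ones, and the part of this difference in them was not tested. Of the genes outside the particle, psmc3ip had a difference of -0.66 ± 0.25 at a low mean signal of 4.64 and psme3ip1 of 0.23 ± 0.19 (SE; limma, adjusted p = 0.0686 and 0.357).

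**Figure D4:**
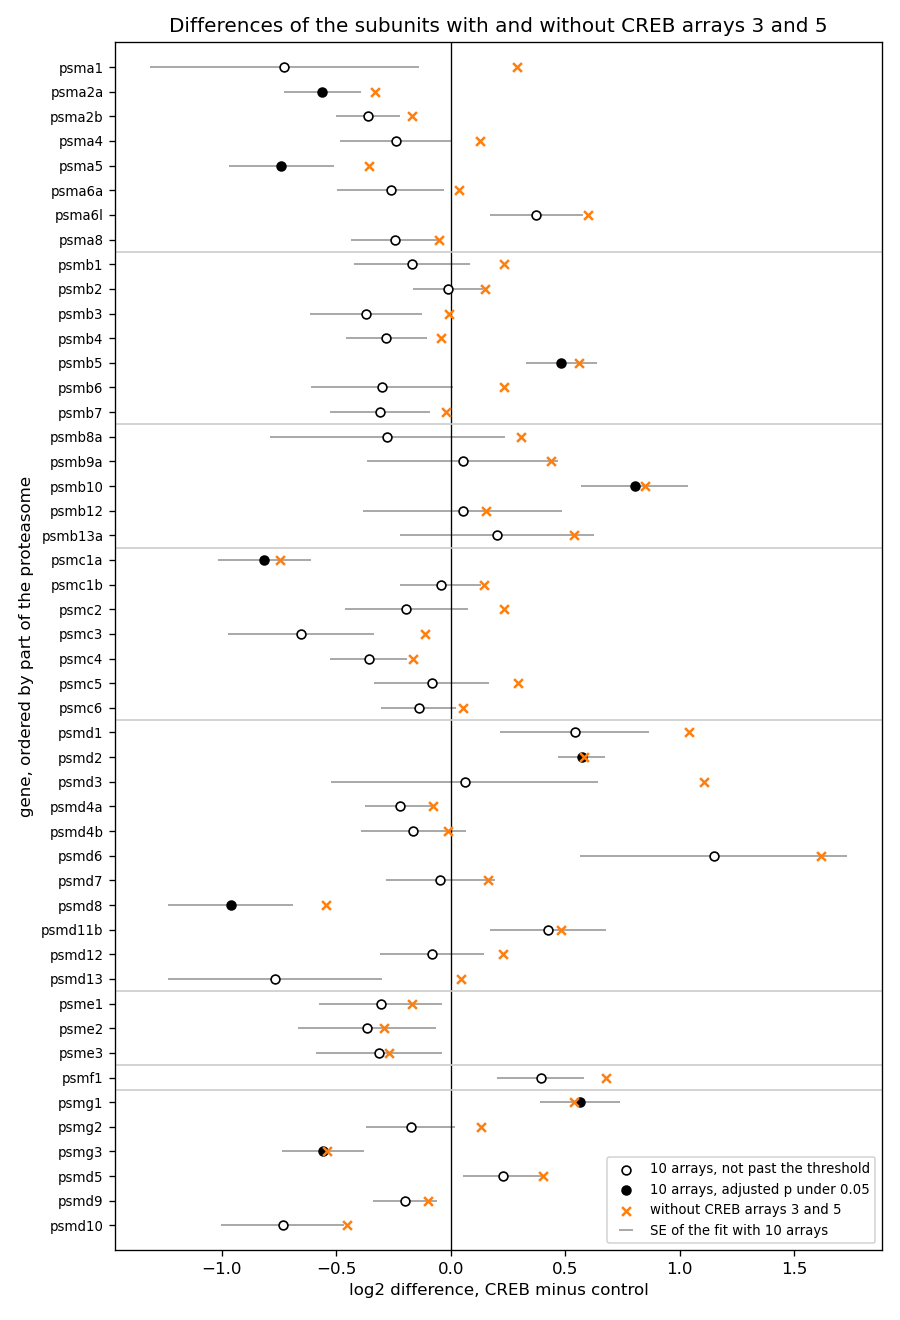
Log2 difference, CREB minus control, of the 48 proteasome genes with the SE of the fit to 10 arrays (circles, filled where the adjusted p is under 0.05), and the same difference without CREB arrays 3 and 5 (crosses). The crosses lie to the right of most circles, by the most in psmd3 and psma1, and nearly on the circle in psmd2, psmg1, psmg3 and psmb10.

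Of 17 measured factors, from a list of 27 that bind it or serve it, 3 rose and 2 fell, with a median difference of 0.04, against 23.5% of all probe sets higher and 6.79% lower. Without CREB arrays 3 and 5, 2 were higher and 0 lower. The gene ubqln4, which encodes a shuttle for ubiquitin-tagged proteins, was at 7.82, 8.21, 8.62, 8.41 and 7.97 in CREB fish and 6.90, 7.11, 6.81, 7.24 and 6.84 in control fish. No arrays overlapped, and the difference was 1.23 ± 0.17 (SE; limma, adjusted p = 0.00276). The thioredoxin-like gene txnl1, whose product binds the regulatory particle, rose by 0.77 ± 0.15, and the proteasome-bound deubiquitinase gene uchl5 fell by 0.59 ± 0.17 (SE; adjusted p = 0.00796 and 0.0289). The uchl5 call was lost without CREB array 1 or 5 or control array 1, 4 or 5 (adjusted p up to 0.0648). It held in 7 of 14 other alternatives (limma, adjusted p up to 0.178). Among those where it was lost were replicate number as a block and the mean of the gene's probe sets. Named after their values were seen, the ubiquitin receptor gene adrm1, which anchors the uchl5 product, rose by 0.46 ± 0.14 and the small lid gene sem1 fell by 0.40 ± 0.12 (SE; adjusted p = 0.0370 and 0.0318). The maturation factor gene pomp had a difference of 0.17 ± 0.14 (SE; adjusted p = 0.354).

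None of 4 measured (of 8 listed) ubiquitin and activating enzyme genes passed (limma; none higher and 1 lower at an unadjusted p under 0.05), against 30.3% of all probe sets called. The polyubiquitin gene ubb was at 12.10, 12.92, 10.50, 12.70 and 10.79 in CREB fish and 12.74, 13.08, 13.10, 12.53 and 12.40 in control fish, again with CREB arrays 3 and 5 low. Its difference was -0.97 ± 0.46 (SE; adjusted p = 0.129). The activating enzyme genes uba3 and uba1 had differences of -0.49 ± 0.18 and 0.28 ± 0.13 (SE; adjusted p = 0.0583 and 0.125).

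Of 11 measured class I antigen presentation genes, from a list of 28, 1 rose and 3 fell, with a median difference of -0.26, against the same 23.5% higher and 6.79% lower. Without CREB arrays 3 and 5, 0 were higher and 2, calr3a and calr, were lower. The calreticulin genes calr3a, calr and calr3b, which encode calcium-binding chaperones of the endoplasmic reticulum, fell, by log2 differences (± SE) of -1.46 ± 0.18, -1.96 ± 0.37 and -0.81 ± 0.26 (limma, adjusted p = 0.00168, 0.00746 and 0.0402). The class I gene mhc1uka rose by 0.54 ± 0.13 (SE; adjusted p = 0.0148), but its control mean of 3.95 lay in the range of tag sequences, and it did not pass with quantile or cyclic loess scaling. The class I light chain gene b2m had a difference of -0.26 ± 0.32 (SE; adjusted p = 0.549). None of 9 measured (of 27 listed) interferon response genes passed (limma), and none did so at an unadjusted p under 0.05, against the same 30.3%. The nearest were the interferon regulatory factor gene irf1b, the antiviral gene mxa and the GTPase gene gbp1, at 0.86 ± 0.42, 0.65 ± 0.36 and -0.50 ± 0.33 (SE; adjusted p = 0.130, 0.175 and 0.248). Without CREB array 1 irf1b passed (adjusted p = 0.0403). The mean level of the 9 genes was highest on CREB array 4, at 7.68, against 6.34 to 6.84 on the other CREB arrays.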

How the data were processed

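Per the labels' protocols, total kidney marrow RNA went through Affymetrix's 3' IVT Express biotin labelling. The values are the authors' deposited table of log2 signals for 15617 probe sets on 10 arrays. The log2 scale was read from the deposited values (2.57 to 15.04), and how the authors summarised and normalized the probes is not stated in the sources used here. Array medians lay between 5.72 and 5.93.

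After 115 control probe sets were set aside, 15502 were tested in R 4.3.3 with lmFit and eBayes of limma 3.58.1 (no covariate, two-sided, Benjamini-Hochberg over all 15502, threshold 0.05). Symbols came from the platform annotation, updated by Entrez gene ID: 10795 probe sets had 1 symbol (10711 matched), 135 several and 4572 none. The rule gave full values to members past the threshold, the immunoproteasome-type and catalytic beta genes, the activators and psmf1, and to 3 genes of each related list. Members, lists, the arrays left out and the rule were chosen with earlier results of these data known. The alternatives were scaling, filters, variance settings, array weights, a replicate block, probe set averages and leaving out arrays. In simulated data for this comparison over 15502 probe sets 59% of simulated log2 changes of size 1 were called, and 91% of those of size 2. The simulation changed far fewer probe sets than were called here. It drew independent noise with the same SD in both groups, unlike the subunits, so these rates need not hold for them. Python 3.11.15, pandas 2.3.3 and matplotlib 3.10.9 drew the figures. No sequences are given, and the RefSeq assembly was used for gene names and gene order only.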

Additional observations from a re-analysis of the deposited data

Results flagged for a closer look

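Of 100 groups of 5 arrays (50 genes in each group), 3 held an array far from the other 4 by Dixon's test, and chance flags about 5% of groups. CREB array 2 was at 13.04 for the lid gene psmd6, against 9.89 to 10.28 on the other CREB arrays. Control array 3 was at 6.95 for the assembly chaperone gene psmg1, against 7.55 to 7.63 on the other control arrays. Control array 2 was at 9.44 for the ubiquitin receptor gene psmd4a, against 9.21 to 9.27 on the other control arrays.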

How the results depend on the processing

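On 10 arrays 4 of the 50 genes were higher, 5 were lower and the median log2 difference was -0.20. Leaving out 1 array in turn gave 1 to 3 higher, 1 to 8 lower (8 without CREB array 4) and a median between -0.31 and -0.076. Counts of higher and lower genes were 2 and 2 over probe sets with a mean of log2 6 or more and 2 and 3 without the dimmest 40%. Fewer probe sets were tested there, and genes that passed on 10 arrays had larger SEs. That of psmd2 was 0.13 with either filter against 0.10. Of the probe sets tested 20.6% and 21.9% were called, against 30.3% with no filter. Median centring left 1 higher. The counts were 1 and 0 without control arrays 4 and 5, and 0 and 0 without control arrays 3, 4 and 5 (limma; 2 and 5 at an unadjusted p under 0.05). Chosen after seeing the data, leaving out control arrays 3 and 5 gave 1 and 2. No gene was lower without CREB arrays 3 and 5, where the median was 0.14, nor without these and control arrays 3 and 5, where it was 0.047. The cause was not tested.

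With the replicate block 2 were higher and 1 was lower. The labels state no pairing of the fish by replicate number. Deviations of same-numbered arrays correlated at 0.20, 0.27, 0.05, -0.003 and -0.02, and 1 of 5 CREB arrays correlated best with its own number. Because several arrays stood apart within their group, these correlations cannot exclude a pairing.

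Changes of sign are listed only for the 19 genes named by the rule and the 5 singled out later. Over all 48 subunits, 14 differences were above 0 on 10 arrays and 29 without CREB arrays 3 and 5. None of the listed differences that changed sign passed the test on 10 arrays. Median centring gave -0.011 for psmb12, -0.010 for psmb9a and -0.0017 for psmd3. Array weights gave -0.28 for psmb12, -0.18 for psmb13a and -0.33 for psmb9a. Leaving out control arrays 3, 4 and 5 gave -0.44, -0.34 and -0.36 for these genes and 0.16 for psme3, and leaving out control arrays 4 and 5 gave -0.12 for psmb12. Leaving out CREB arrays 3 and 5 gave 0.23 for psmb6, 0.31 for psmb8a, 0.046 for psmd13 and 0.29 for psma1. Leaving out control arrays 3 and 5 gave -0.33 for psmb12, -0.25 for psmb13a, -0.35 for psmb9a and 0.056 for psme3. With all 4 of these arrays out the values were -0.23 for psmb12, 0.24 for psmb6, 0.073 for psmb7, 0.10 for psme3 and 0.21 for psma1. The mean of probe sets gave -0.0044 for psmf1. With 1 array left out, psmd3 ranged from -0.27 to 0.45, psmb12 from -0.18 to 0.31, psmb13a from -0.079 to 0.43 and psmb9a from -0.20 to 0.31.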
